A study of Sus scrofa with 8 samples.

Results

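In the liver RNA of 24 male Large White x Landrace pigs, 28149 autosomal sites carried 1 and the same non-reference base in all 8 sequenced pools. They were chosen from the authors' table of single nucleotide polymorphism (SNP) sites with reads in every pool, by the called letters themselves: each of the 8 letters had to differ from the reference base and all 8 had to be equal. Of the 109787 autosomal rows of that table, 25.6% met this rule, and the other 81638 rows, in which at least 1 pool kept the reference base or the letters were unequal, served for comparison. The pigs had developed non-alcoholic steatohepatitis on a steatotic diet rich in fat, cholesterol and fructose and poor in methionine and choline. The squalene group (12 pigs) received that diet with 0.5% squalene and the control group (12 pigs) received it without, for a month after a first month on the steatotic diet alone, and liver RNA of each group was combined into 4 pools of 3 animals. No group without the steatotic diet was used, and a pool letter stands for 3 animals, so no genotype of a single pig can be read from it.

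Sscrofa11.1, the pig reference genome, was assembled from a single sow of the Duroc breed, whereas the pools came from another cross. A site is called a SNP in these tables when a pool reads differently from that 1 reference, so a site at which all 8 pools differ holds no difference among the pools as far as the letters go. In a protein-coding gene such a base can leave the amino acid as it is (synonymous), change it (missense), or make or remove a stop codon. Changes between A and G or between C and T are transitions, the commonest class of point change in mammals, and a C followed by a G (a CpG) is the place where C most often changes to T. Neighbouring sites on 1 chromosome are inherited together, so the sites are not independent counts. Every share of sites below is therefore a description, with the spread over the 18 autosomes where that can be given, and with no test, because the letters chose the sites. The letters come without read depth, and a non-reference letter does not tell whether the reference base was read as well.

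The sites that altered a stop codon show most directly what the shared bases do to an annotated gene. Of the 8774 shared sites whose codon effect could be read, 8 made a stop codon, 4 removed the stop codon that ends a coding sequence, and 2 removed a stop codon lying inside the annotated frame. The windows of 29 bases below are in the direction of transcription, with the changed base in capitals. Coding positions count from 1 at the first base of the longest annotated coding sequence that holds the site. BCO2 (beta-carotene oxygenase 2, a mitochondrial carotenoid-cleaving enzyme; chr9:39916247-39916275, plus strand) carried A1670G, which turned the final TAG into a tryptophan codon. FXYD5 (a regulator of the sodium and potassium pump; chr6:44682349-44682377, plus strand) carried G104A, MRPL45 (a protein of the mitochondrial ribosome; chr12:23752554-23752582, minus strand) carried T919C, and SEC24A (a cargo-binding protein of the COPII vesicle coat; chr2:136884259-136884287, plus strand) carried G44A. These are the 4 stop changes in the genes of highest mean FPKM.
BCO2 reference: aagaaattttctctAgtcttggatgccaa
BCO2 pools: aagaaattttctctGgtcttggatgccaa
FXYD5 reference: cgcacgaggctgctGgctcgggaccccca
FXYD5 pools: cgcacgaggctgctAgctcgggaccccca
MRPL45 reference: agcctcagcctgcgTgacggcgaaatgac
MRPL45 pools: agcctcagcctgcgCgacggcgaaatgac
SEC24A reference: agccctaagtcgttGgccccctccctccg
SEC24A pools: agccctaagtcgttAgccccctccctccg

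Beside them, 1 window was picked after its values had been seen, from DHX8 for the stop inside its frame. DHX8 (an RNA helicase of the spliceosome; chr12:19569969-19569997, minus strand) carried T1309G at codon 437 of 1213, which is a TAG in the reference and a glutamate codon in the pools.
DHX8 reference: aactggtggaggaaTagcctcccttcctg
DHX8 pools: aactggtggaggaaGagcctcccttcctg

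In BCO2 the next stop in the frame came after 27 codons, and 14 of 14 coding transcripts were affected. ELF2, an ETS transcription factor, carried T1822A at its stop codon in 23 of 23 coding transcripts and ended 8 codons later, and MRPL45 ended 5 codons later in its single coding transcript. The end of the annotated protein thus differed between the reference and the pools in these 3 genes. SH3TC1 carried T1255G, where the reference reads TAA inside the frame and the pools read a glutamate codon at position 419 of 1329. For the transcripts of DHX8 and SH3TC1 the annotation itself already notes a stop codon in the genome sequence.

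The 8 shared sites that made a stop codon lay at different depths in their proteins. SEC24A had its stop at codon 15 of 1145 in 4 of 5 coding transcripts, SGK2 (a serum and glucocorticoid regulated kinase) had C36A at codon 12 of 510 in 7 of 18, and FXYD5 had its stop at codon 35 of 270 in 3 of 10. PGAP2, a gene of GPI anchor maturation, carried G170A at codon 57 of 354 in 10 of 27 coding transcripts. In these 4 genes some annotated isoforms escape the stop. MUS81, the catalytic subunit of a structure-specific endonuclease, carried C1612T at codon 538 of 611 in 1 of 3 coding transcripts. IL18BP, the secreted binding protein of interleukin 18, carried C580T at codon 194 of 256 in 1 of 2. CENPX, a centromere protein, carried G717A at codon 239 of 310 in 3 of 6, and LOC102165642 carried G607T at codon 203 of 254 in 6 of 6, so that LOC102165642 was the only 1 of the 8 with the stop in every annotated coding transcript. The other rows made 51 stop codons among 21688 sites with a codon effect, or 0.235%, against 0.0912% among the shared sites. Start codons were changed at 2 shared sites, T2A in RTN4 (reticulon 4, an endoplasmic reticulum protein) and T2C in C2H5orf63, and neither these 2 nor the MRPL45 site were among the authors' sites listed for all samples.

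Missense changes are shown for the genes of highest mean FPKM that carried such a site. ALB (serum albumin; chr8:69654123-69654151, plus strand) carried T1124C, isoleucine to threonine at codon 375. FGB (fibrinogen beta chain; chr8:74601563-74601591, minus strand) carried A700G and GC (the vitamin D binding protein of plasma; chr8:68349480-68349508, minus strand) carried A121G, both threonine to alanine. CYP2E1 (the ethanol-metabolizing cytochrome P450; chr14:141702795-141702823, plus strand) carried A1423G, again threonine to alanine, and FGA (fibrinogen alpha chain; chr8:74582299-74582327, plus strand) carried C1846T, leucine to phenylalanine.
ALB reference: gagaattgccaagaTatatgaagccacac
ALB pools: gagaattgccaagaCatatgaagccacac
FGB reference: ctccatgtaccgtcActtgcaatattcct
FGB pools: ctccatgtaccgtcGcttgcaatattcct
GC reference: gaaaagatgacttcAcatcgttgtaagta
GC pools: gaaaagatgacttcGcatcgttgtaagta
CYP2E1 reference: acctcagccccatcAcgattgggtttgcc
CYP2E1 pools: acctcagccccatcGcgattgggtttgcc
FGA reference: gcccaggatctgacCtcgcaggcttcttc
FGA pools: gcccaggatctgacTtcgcaggcttcttc

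The ALB site was not among the authors' sites listed for all samples, while those of FGB, GC, CYP2E1 and FGA were. The same rule also gave CYP3A22 (A1420C), SLA-2 (G569T) and GSTA1 (A629C), which belong to families of near-identical genes, so their reads could have been placed between copies and their sites are uncertain. Missense changes made up 26.7% of the shared sites with a codon effect (2346 sites) and 30.2% of the other rows (6559 sites), and synonymous changes made up 73.1% (6412 sites) and 69.4% (15062 sites). IL22RA1, a subunit of the interleukin 22 receptor, held 4 shared sites within the 60 bases chr6:81869468-81869527, 2 of them missense and 2 synonymous. ABCG5, a sterol transporter of the hepatocyte, held 3 within 60 bases (chr3:96626756-96626815), all synonymous. In each of these windows the table listed no row that was not a shared site.

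Among the autosomal rows, sites non-reference in all pools were the most numerous class. Rows with 1, 2, 3, 4, 5, 6 and 7 non-reference pools numbered 19065, 12159, 10428, 9419, 9376, 9811 and 11318, and those with 8 numbered 28211. Of the 28211, 62 had unequal letters and did not count as shared. Counts were lowest at 4 and 5 pools and rose to both ends. Just outside the rule, 11298 rows had the same non-reference base in 7 of 8 pools, with transitions at 76.0% and A or T to G or C changes at 43.8%, against 75.8% and 46.8% in the shared sites. A shorter list by the authors, which only its own note describes as holding for all samples and whose criterion is not known here, held 24832 of the shared sites (88.2%) and 49 of the other rows (0.06%). In 2 shared sites every pool had a pair of joined letters, so substitution types were counted over 28147 sites.

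**Figure D1:**
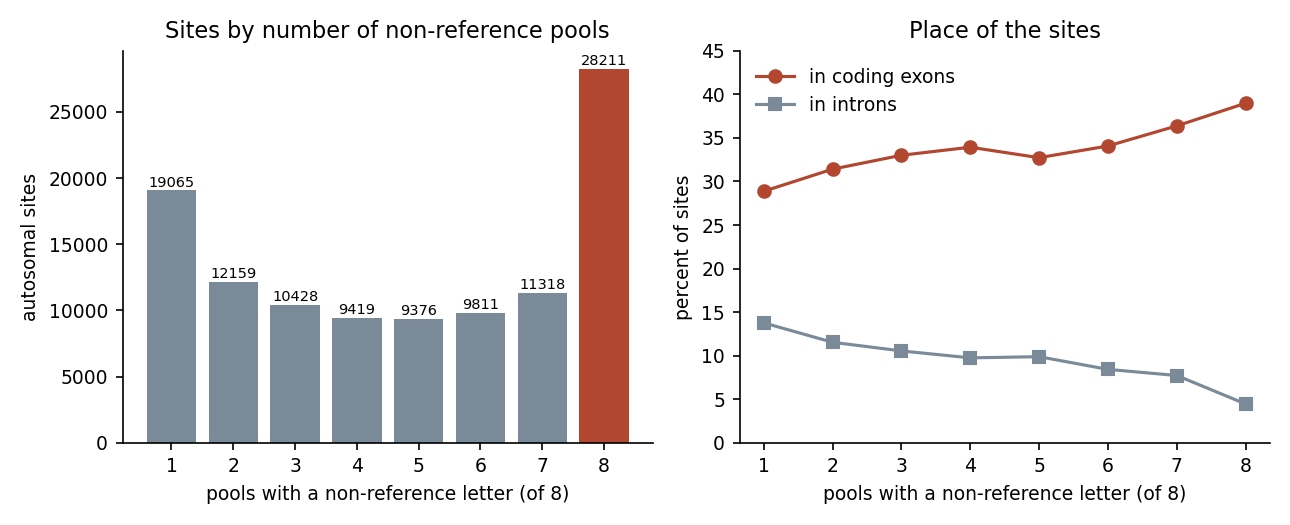
Left, number of autosomal sites (vertical axis) by the number of pools with a non-reference letter, 1 to 8 (horizontal axis). Sites non-reference in all 8 pools, in red, numbered 28211, more than any other class. Right, percent of the sites of each class that lay in coding exons (circles), which was 28.9% at 1 pool and 39.0% at 8, and in introns (squares), which was 13.8% at 1 pool and 4.46% at 8.

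Over all autosomal rows, the share of transitions did not set the shared sites apart. It was 75.8% in the shared sites and 75.9% in the other rows, and over the autosomes it averaged 75.6 ± 1.65% in the shared sites and 75.7 ± 1.24% in the other rows (SD, n = 18 autosomes). On 10 of 18 autosomes it was higher in the shared sites. Across the classes of 1 to 8 non-reference pools it stayed between 75.4% and 76.5%.

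The direction of the changes differed. In the shared sites, A to G made up 20.5% and T to C 19.8%, against 17.5% and 17.6% in the other rows. G to A made up 17.8% and C to T 17.7% of the shared sites, against 20.3% and 20.5% of the other rows. Thus the transitions toward G or C were the commoner ones among the shared sites and the rarer ones among the other rows. Each of the 8 transversion types took 2.02% to 3.70% of the shared sites and 2.22% to 3.51% of the other rows, and the widest difference was −0.240 percentage points, for G to T. Added up, changes of A or T to G or C made up 46.8% of the shared sites and 41.2% of the other rows, and the reverse changes made up 41.7% and 47.4%. Their ratio was 1.12 in the shared sites and 0.870 in the other rows.

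**Figure D2:**
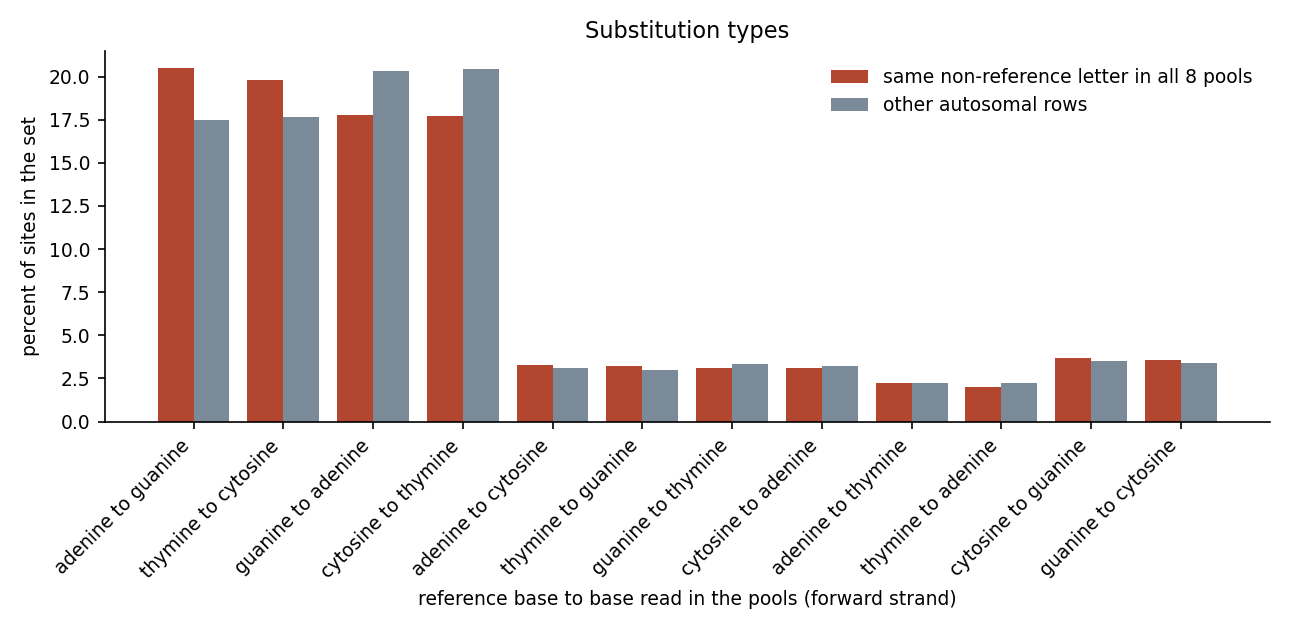
Percent of sites (vertical axis) in each of the 12 substitution types from the reference base to the base of the pools on the forward strand (horizontal axis), for the 28147 shared sites with 1 letter (red, left bar) and the other autosomal rows (gray, right bar). The red bars stand higher for adenine to guanine and thymine to cytosine, at 20.5% and 19.8%, and lower for guanine to adenine and cytosine to thymine, at 17.8% and 17.7%.

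The excess of A or T to G or C changes was present on 18 of 18 autosomes. It averaged 46.5 ± 1.24% in the shared sites and 41.5 ± 1.64% in the other rows (SD, n = 18 autosomes), and the lowest autosome of the shared sites (44.5%) lay just above the highest of the other rows (44.4%). The share was lowest at 2 non-reference pools (39.7%) and increased class by class to 40.0%, 40.6%, 41.4%, 42.1%, 43.8% and 46.8% at 3 to 8 pools. The class of 1 pool, at 41.2%, stood above that of 2. CpG pairs were created by 22.2% of the shared changes and by 17.4% of the other rows, and removed by 18.98% and 21.83%. In these letters, the shared changes therefore made more CpG pairs than they removed, while the other rows removed more than they made.

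**Figure D3:**
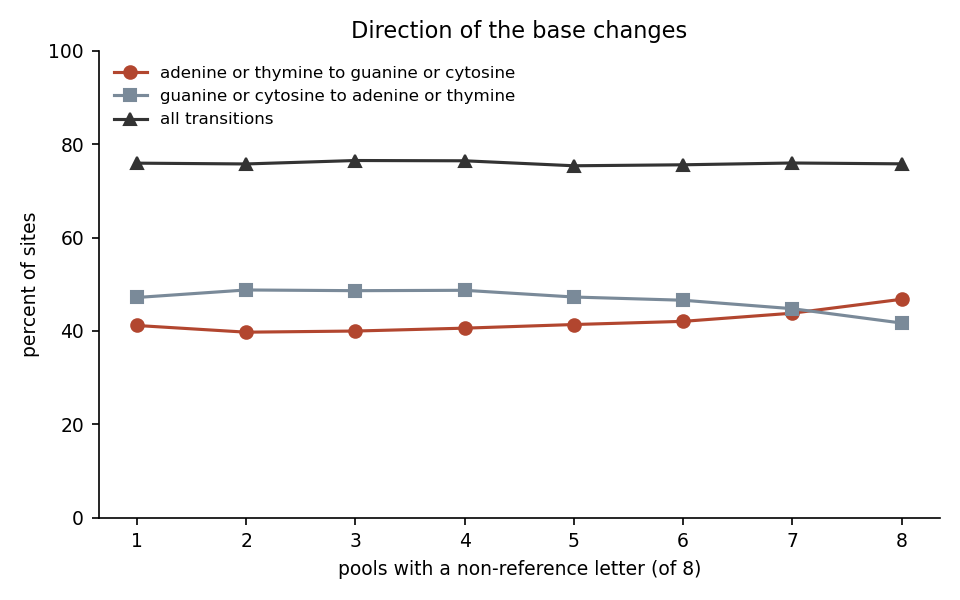
Percent of autosomal sites (vertical axis) by number of non-reference pools (horizontal axis) for changes of adenine or thymine to guanine or cytosine (red circles), the reverse changes (gray squares) and all transitions (black triangles). The red line is at 41.2% for 1 pool and 46.8% for 8 pools and crosses the gray line between 7 and 8 pools, while transitions stay between 75.4% and 76.5%.

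The size of that excess depended on where the site lay. In coding exons A or T to G or C changes made up 48.3% of the shared sites and 36.8% of the other rows, 11.4 points apart, and the gap was nearly the same at synonymous (11.0 points) and missense sites (11.5 points). In exon parts of coding genes that are not translated it was 2.97 points, in exons of noncoding genes 6.03 points, in introns 1.35 points and between genes 0.801 points. In soft-masked repeat bases the order turned round, with 53.3% in the shared sites and 55.8% in the other rows, and outside repeats it was 46.0% and 38.2%. Transitions in repeats were also fewer in the shared sites, 71.8% against 76.3%, while in exons of noncoding genes they were more, 76.0% against 72.6%.

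Read in the direction of transcription, adenosine-to-inosine RNA editing by ADAR enzymes appears as an A-to-G change, so the sense strand of each site was compared as well. In untranslated or noncoding exons, A to G exceeded T to C by 1.95 points in the shared sites (20.1% and 18.2%) and by 5.81 points in the other rows (20.7% and 14.9%). In introns the excess was 0.329 points in the shared sites and 4.27 points in the other rows. In coding exons A to G minus T to C was −2.38 points in the shared sites (20.3% and 22.7%) and −0.239 points in the other rows. No stretch of 100 bases held 4 shared sites of sense A to G, the pattern of clustered editing, and 1 stretch held 4 of G to A. The deposited letters do not tell an edited base from a base of the genome.

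The shared sites lay more often in exons than the other rows. Coding exons held 39.0% of them (10973 sites) and 32.5% of the other rows, untranslated or noncoding exons of coding genes held 47.7% (13426 sites) and 45.8%, and introns held 4.46% (1256 sites) and 10.6%. Between genes lay 6.52% of the shared sites and 8.67% of the other rows. Repeat bases held 11.3% and 17.3%, and 10.8% of the shared sites had another listed site within 10 bases, against 14.6% of the other rows. Exonic shared sites were within 5 bases of an internal exon edge in 0.970% of cases, and the other rows in 1.45%.

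The level of the host gene moved with the share of shared sites. FPKM, the fragments that map to a gene relative to its length and to the library's depth, was averaged over the 8 pools for each gene. Of the exonic rows in genes at 1 FPKM or less, 9.11% were shared sites, and the share was 17.4% over 1 to 3 FPKM, 28.4% over 3 to 10 and 37.5% over 10 to 30. Above that it stayed between 37.4% and 39.7%. FPKM was taken as a rough measure of depth, since the letters give none beyond the mark for no reads, and its part in the choice of the sites was not tested. Within each of the 7 FPKM classes, A or T to G or C changes were higher in the shared sites by 6.69 to 7.81 points. The difference in transitions ran from −1.18 points over 30 to 100 FPKM to 7.07 points over 300 FPKM (78.1% and 71.05%).

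The autosomes differed in how many of their rows were shared sites. Chromosome 16 had the highest share, 33.8% (808 of 2391 rows), followed by chromosome 5 with 30.04%, chromosome 2 with 29.6% and chromosome 11 with 29.1%. Chromosome 6 had the lowest, 22.4% (2213 of 9876 rows), followed by chromosome 12 with 22.7%, chromosome 18 with 22.9% and chromosome 1 with 23.0%. The mean over autosomes was 26.0 ± 2.99% (SD, n = 18). Chromosome 16 was the only autosome more than 2 SD from that mean. The median FPKM of host genes was 5.48 on chromosome 16 and 6.13 on chromosome 6. In numbers, chromosome 2 held the most shared sites, 2552, and chromosome 18 the fewest, 614. Outside the autosomes, the same letter rule gave 305 of 1386 rows on chromosome X (22.0%), 20 of 90 on Y and 117 of 194 on the mitochondrial genome (60.3%).

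**Figure D4:**
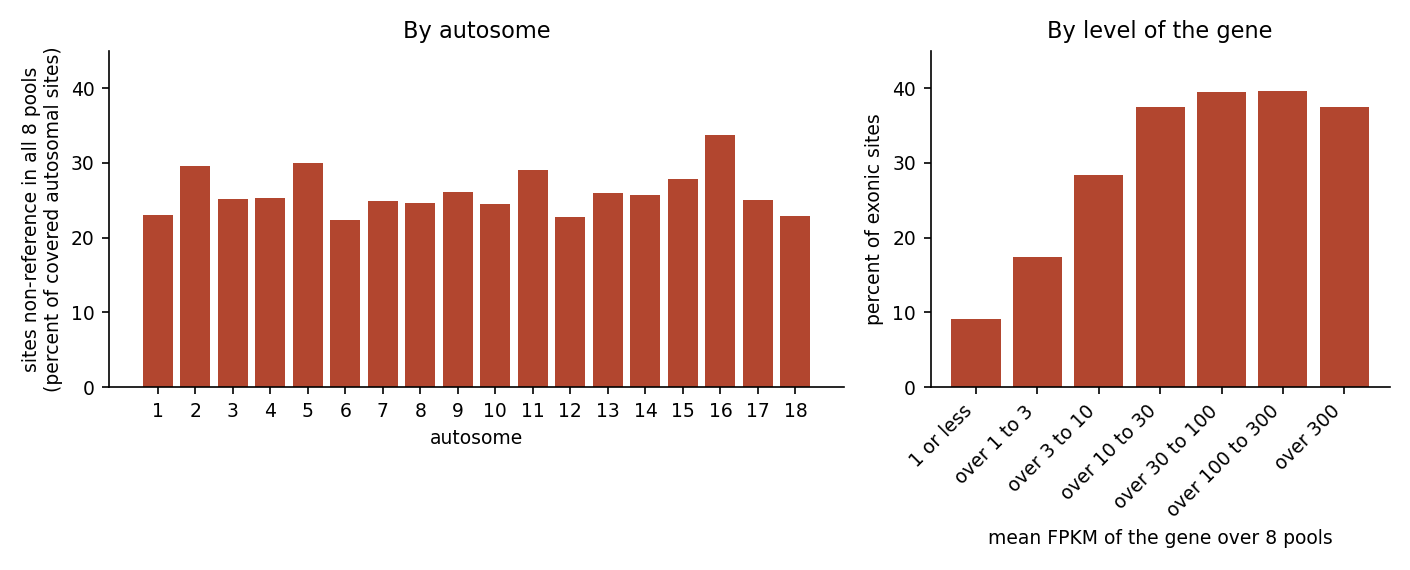
Left, percent of the covered sites of each autosome that were non-reference with the same letter in all 8 pools, highest on chromosome 16 (33.8%) and lowest on chromosome 6 (22.4%). Right, the same percent among exonic sites by the mean FPKM of the host gene, which was 9.11% at 1 FPKM or less and 39.7% over 100 to 300 FPKM.

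Shares over windows of 1 Mb spread more widely than those over whole chromosomes. A window holds far fewer rows than a chromosome, so these spreads are not directly comparable. Over the 1106 windows of 1 Mb with at least 30 rows, the median share was 24.4%, with quartiles at 14.3% and 34.9%. In 70 windows it was above 50%. The highest share, 80%, was in the window at 87 to 88 Mb of chromosome 15, where 24 of 30 rows were shared, 10 of them in ITGA4, an integrin subunit of leukocytes. Next came 67 to 68 Mb of chromosome 6 with 52 of 70 rows (KLHL21, DNAJC11 and THAP3), 13 to 14 Mb of chromosome 17 with 75 of 101 (PSD3 and RASSF2), 76 to 77 Mb of chromosome 14 with 69 of 94 (FAM149B1, MRPS16, PLAU and VCL) and 242 to 243 Mb of chromosome 1 with 30 of 42 (INVS).

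At the other end, 17 of the 1106 windows had no shared site. Chromosome 6 held a cluster of them, singled out after its values had been seen. Its window at 59 to 60 Mb had 0 of 65 rows, that at 60 to 61 Mb had 2 of 36, and that at 61 to 62 Mb had 0 of only 6. The windows at 62 to 63, 63 to 64 and 64 to 65 Mb had 0 of 64, 0 of 121 and 0 of 46. The window of 121 rows contains AGRN, HES4 and ISG15, and the median FPKM of its host genes was 4.79. Chromosome 6 thus held both a window among the 5 highest and these windows with few or no shared sites, within 10 Mb of each other.

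Shared sites also followed each other without interruption by another row. They formed 13858 runs of consecutive rows, 7864 of them of a single site, and 152 runs of 10 or more held 1947 sites. The longest, 32 sites over 38210 bases of chromosome 2, covered ATL3 and its neighbour PLA2G16. CLSTN3 on chromosome 5 had 28 in a row within 4148 bases. A run of 25 on chromosome 9 crossed AKAP9, CYP51, KRIT1 and ANKIB1, and CYP51 is the lanosterol demethylase of cholesterol synthesis. STARD4 had 24 within 6822 bases, FAM105A had 24 within 8449 bases, and another run of 24 crossed CCT6A, SUMF2 and PSPH. Runs of 19 to 23 lay in or around IGFBP1, in UBE2D4 with DBNL, in TGOLN2 with RETSAT and in PLPBP with ERLIN2. CMPK2, an interferon-induced mitochondrial kinase, had 18 within 1461 bases. The runs were named after their values had been seen.

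Of the 11191 genes with an exonic row, 6526 had at least 1 shared site in an exon. The median among them was 2, 600 genes had 10 or more and 84 had 20 or more. SLC7A2, a transporter of arginine and lysine, held the most, 46 of its 73 exonic rows (chr17:5191973-5271849), followed by GPR107 with 45 of 53 (chr1:270190074-270255498). ITGA1, the collagen-binding integrin alpha 1, had 39 of 63 and PSD3, an exchange factor of ARF6, had 39 of 45. GPLD1, the phospholipase D that releases GPI-anchored proteins, had 37 of 60, and MRS2, a mitochondrial magnesium channel, had 34 of 61. These 2 genes lie on opposite strands and share 54 exonic rows, which cannot be told apart without strand. ALDH8A1 and TMEM56 had 35 each, of 65 and 44 rows, and GCLM, the regulatory subunit of glutathione synthesis, and LOC102157546 had 34 each, of 53 and 58. Most of these sites lay outside coding sequence. Of those within it, 6 of 7 were missense in TMEM56, 3 of 7 in ALDH8A1, 2 of 12 in SLC7A2 and 0 of 5 in ITGA1.

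Among the 1093 genes with at least 20 exonic rows, 189 had more than 50% shared sites and 107 had none. The median FPKM was 9.90 in the 189 genes and 2.77 in the 107 genes. ATL3, a GTPase that shapes the endoplasmic reticulum, had 28 of 28 rows shared. DEPTOR, an inhibitor of mTOR, had 28 of 30, STARD4, a cholesterol transfer protein, had 24 of 26, and SP110, an interferon-induced nuclear body protein, had 20 of 22. SP110 stood out among them by its coding changes, since 16 of its 20 shared sites were in coding exons and 9 were missense. PSD3, at 86.7%, completed the 5 highest.

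Gene groups of the liver differed in the share of their exonic rows that were shared sites, against 27.6% over all genes counted gene by gene. Complement components, the secreted defense proteins of plasma, had 47.9% (78 of 163 rows), with C7 at 10 of 10 and C1S at 9 of 13. Genes of cholesterol synthesis had 47.1% (65 of 138), with CYP51 at 8 of 8 and INSIG1, the sterol sensor of the endoplasmic reticulum, at 10 of 12. Secreted plasma proteins had 42.7% (152 of 356), with 17 of 33 in F5, coagulation factor V, and 13 of 28 in RBP4, the retinol carrier. These groups stood above the share over all genes and also had median levels of 246, 19.4 and 860 FPKM, against 5.04 FPKM over all genes. Apolipoprotein and lipoprotein genes had 38.7% (LRP1, an endocytic receptor, 22 of 30, and MTTP, the lipid transfer protein of VLDL assembly, 10 of 12). Genes of fatty acid and triglyceride metabolism had 37.7% (SCD, stearoyl-CoA desaturase, 17 of 19, and ACACA, acetyl-CoA carboxylase, 11 of 22).

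Interferon-stimulated genes had 36.6% (96 of 262 rows), with CMPK2 at 18 of 19 and DDX58, the RNA sensor RIG-I, at 13 of 31. Cytochromes P450 had 35.03% (117 of 334), with 16 of 21 in CYP1A2 and 15 of 18 in CYP7A1, the rate-limiting enzyme of bile acid synthesis. Genes of cytosolic ribosomal proteins had 40.0% (68 of 170). The swine leukocyte antigen list holds genes of chromosome 7 that present peptides to T cells, and also TAP2 (11 of 31 rows). It had 28.8% (88 of 306), close to the share over all genes, at a median of 42.2 FPKM. All exonic rows in genes over 30 to 100 FPKM had 39.5%. Some genes of this list are near-identical copies, so their reads could have been placed between copies. ADAR and other RNA modification genes had 26.8% (22 of 82). Zinc finger genes had the lowest share, 14.6% (162 of 1112), and a median of 1.73 FPKM, the lowest of the groups with rows. No olfactory receptor gene had a row. In the FPKM classes over 10, all exonic rows together had 37.4% to 39.7%. Apolipoprotein and lipoprotein genes and those of fatty acid and triglyceride metabolism lay within that range. The other groups with rows lay above or below it. Because level and share moved together, the part of the level in these group differences was not tested.

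The diets could be compared in the sites that missed the rule by 1 pool. Sites at which a single pool kept the reference letter while the other 7 shared 1 non-reference base numbered 1862, 1446, 1452 and 1614 in the squalene pools, against 869, 1188, 1479 and 1388 in the control pools. Only control pool 3 lay within the squalene range, and the fewest were in control pool 1. The mean was 1593.5 ± 195 sites per squalene pool and 1231 ± 270 per control pool (SD, n = 4 each), a difference of 362.5 sites. The letters of the other 7 pools chose these sites, so the counts are given as a description. Sites without reads in a single pool, with the same non-reference base in the other 7, numbered 95, 73, 150 and 102 in the squalene pools and 42, 45, 81 and 84 in the control pools. Squalene pool 2 fell within the control range. The means were 105 ± 32.4 and 63 ± 22.6 (SD, n = 4 each), 42 sites apart, again as a description. Missing reads and kept reference letters both numbered more in the squalene pools on average, and the part of depth in either was not tested.

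**Figure D5:**
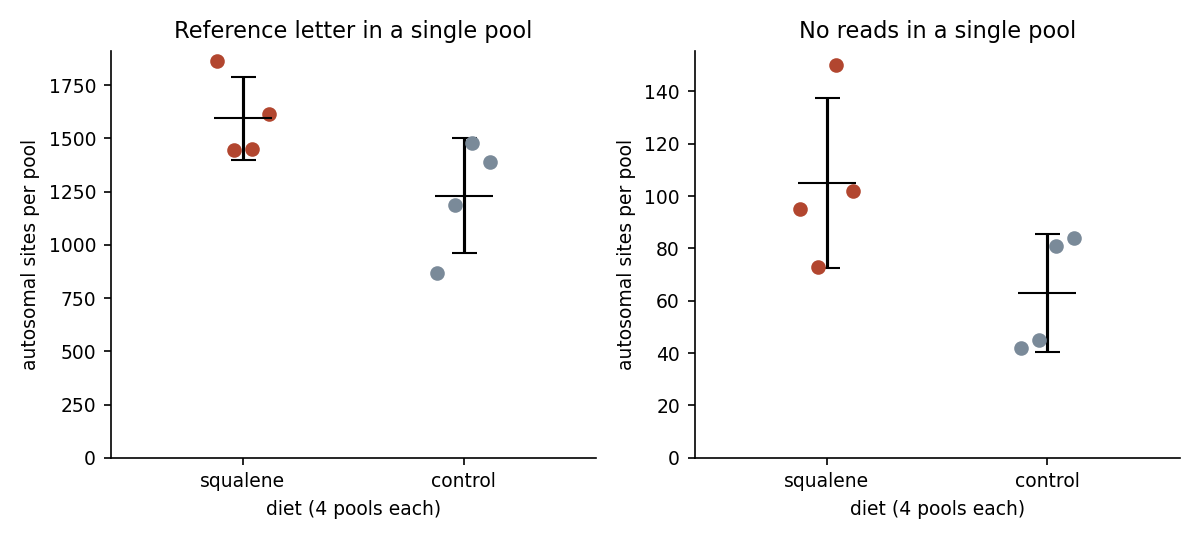
Number of autosomal sites per pool (vertical axis) at which that pool alone kept the reference letter (left) or alone had no reads (right), while the other 7 pools shared 1 non-reference base. Points are the 4 squalene and 4 control pools, and horizontal lines with bars are means with SD. The squalene means are 1593.5 and 105, the control means are 1231 and 63, and the ranges of the diets overlap in both panels.

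No gene was called different between the diets, with or without a shared site. limma on log2(FPKM + 0.1) called 0 of 14780 genes at an adjusted p under 0.05 (0%), and 645 genes had an unadjusted p under 0.05 (4.36%). With 0 calls over all genes, the calls tell nothing particular about genes with a shared site. By its own criteria the paper did report genes that differed between the diets, and it found some of them again by PCR in individual pigs. Of the 6398 tested genes with a shared site in an exon, 0 were called and 241 (3.77%) had an unadjusted p under 0.05. Of the 599 tested genes with 10 or more shared sites, 0 were called and 21 (3.51%) had an unadjusted p under 0.05. The median log2 fold change was −0.01 in the genes with a shared site, −0.03 in those with 10 or more and −0.01 over all genes tested. In bulk liver RNA, fewer cells of a type and less RNA per cell cannot be told apart.

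The 5 genes with the highest share of shared sites are given by pool. ATL3 had 11.59, 9.96, 10.51 and 10.05 FPKM in the squalene pools and 11.02, 11.00, 9.88 and 9.64 FPKM in the control pools. STARD4 had 12.23, 16.10, 12.37 and 16.92 FPKM in the squalene pools and 18.12, 21.52, 9.24 and 13.52 FPKM in the control pools, the widest spread of the 5. The pools of both diets overlapped in both genes. SP110 had 13.27, 11.33, 12.29 and 11.86 FPKM in the squalene pools and 13.50, 13.47, 10.11 and 10.56 FPKM in the control pools. DEPTOR had 2.68, 2.93, 3.51 and 3.83 FPKM in the squalene pools and 2.91, 4.00, 3.40 and 3.42 FPKM in the control pools. PSD3 had 3.91, 4.17, 3.51 and 4.21 FPKM in the squalene pools and 4.53, 4.90, 4.07 and 3.65 FPKM in the control pools, again with overlap. Their log2 fold changes lay between −0.11 ± 0.12 in PSD3 and 0.04 ± 0.12 in SP110 (limma, SE, n = 4 pools each), and the adjusted p was 0.9997 in each of the 5.

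The pools had the makeup of liver. ALB, the most abundant hepatocyte marker, lay between 24083 and 49354 FPKM over the 8 pools, and CPS1, the first enzyme of the urea cycle, between 211 and 436. Markers of macrophages (CD68, 97.7 to 145 FPKM), stellate cells (COL3A1, 55.3 to 120), endothelium (PECAM1, 19.04 to 25.76) and bile ducts (KRT7, 0.640 to 3.77) were read in every pool as well, so a shared site in such a gene need not come from hepatocyte RNA.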

How the data were processed

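Liver RNA was sequenced in 4 squalene and 4 control pools of 3 pigs each, with the diet and number of each pool taken from the labels. After filtering, reads were aligned by the authors with HISAT2 to Sscrofa11.1. The aligner's version and the SNP caller are not given in the sources used. The deposited SNP tables of the authors give 1 reference base and 1 letter (or a mark for no reads) per site and pool, without depth, and whether letters were called per pool or jointly is not given. The authors also deposited FPKM per gene and pool. Splicing tables and the authors' comparison of added pools (fold changes and p-values) were not used here.

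The reference base of every site matched the genome used here. Place and strand came from NCBI Annotation Release 106 of Sscrofa11.1, over all annotated genes and transcripts. Codon effects were read in the longest coding sequence holding the site, which need not be the longest isoform of the gene. The 1422 coding transcripts whose annotated frame is corrected for inserted or deleted bases were not used for codon effects. Neither were 27 with an unexplained stop inside the frame. Transcripts whose annotation notes a genomic stop codon were kept, those of DHX8 and SH3TC1 among them. Repeats are the soft-masked bases of that genome. Rows of 2 joined letters were left out of substitution types. A gene row counts once for each gene whose exon holds it.

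Named genes were the 10 with most shared exonic sites, the 5 with the highest share among genes with at least 20 exonic rows, genes with a changed stop codon, at most 4 per list by number of shared sites, and the 5 windows of 1 Mb with the highest share. Of the genes with a changed stop codon, 1 is not reported here. Printed sequences came from the genes of highest mean FPKM. The sites and the gene lists were chosen with earlier results of these data known. Counts of sites that missed the rule by 1 pool are given as a description, because letters chose those sites. The planned exact permutation test over the 70 assignments of pools to diets gave p = 0.0857 for both counts. No conclusion was drawn from it. FPKM was compared with limma 3.58.1 in R 4.3.3 (trend, Benjamini-Hochberg adjustment) over genes whose mean reached 0.1 FPKM. The procedure was tested on simulated data in which every changed gene had the same large fold change, up or down. Smaller changes were not simulated. Python 3.11.15 with pandas 2.3.3, scipy 1.17.1 and matplotlib 3.10.9 did the rest. Alternatives covered the pools required, each pool left out in turn, 1 site per gene, isolated sites, coding exons, repeats, highly expressed genes, the pseudocount, the filter on low values and a block for the pool number.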

Additional observations from a re-analysis of the deposited data

How the results depend on the processing

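The number of shared sites was 28149, and it was 28454 with chromosome X, 28211 with unequal letters allowed, 39447 with 7 of 8 pools, 28821 with reads in at least 7 pools, and 29019 to 30011 without each pool in turn. Without each pool in turn transitions were 75.74% to 75.87% in the shared sites and 75.91% to 75.96% in the other rows, and A or T to G or C changes were 46.54% to 46.77% and 41.15% to 41.24%. With at most 1 site per gene, transitions were 75% in the shared sites and 74.8% in the other rows, A or T to G or C changes were 47.6% and 39.2%, and the share of shared sites was 31.4% on chromosome 16 and 19.6% on chromosome 6. In coding exons transitions were 80.5% and 80.1%, and A or T to G or C changes were 48.3% and 36.8%. Without repeats transitions were 76.3% in the shared sites and 75.9% in the other rows. A or T to G or C changes were then 46.0% and 38.2%, and chromosomes 16 and 6 had 35.9% and 24.0%. With no other site within 10 bases transitions were 76.0% in the shared sites and 76.2% in the other rows. A or T to G or C changes were then 46.5% and 40.5%. In exons of genes over 10 FPKM, an alternative chosen after seeing the data, A or T to G or C changes were 45.7% and 38.6%. The counts of A or T to G or C changes were themselves added after seeing the data. The order of the autosomes was recomputed with 1 site per gene, without repeats and without each pool in turn. Chromosome 16 stayed the highest in these settings, while chromosome 12 was the lowest with 1 site per gene (17.5%) and without repeats (23.4%), and chromosome 18 without squalene pool 4 (23.8%). Without each pool in turn chromosome 16 had 34.5% to 35.55% and chromosome 6 had 23.0% to 24.1%.

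Both differences between the diets in single pools kept their direction in each setting run. Without each pool in turn the difference of kept reference letters was 242 to 445 sites and that of missing reads 27 to 52.7 sites. For these ranges the sites were not chosen again, and only the count of the left-out pool was dropped from its mean. The letters of every pool still chose the sites, so the kept direction is no independent support for either difference. With at most 1 site per gene the differences were 119.5 and 22.5 sites, and without repeats the first was 299.5 sites. Paired by pool number in a replicate block, the mean differences stay 362.5 and 42 sites by arithmetic, so that setting could not change them. The pool numbers did not pair the pools, since the correlations of same-numbered pools were −0.0685 to 0.0914, and limma with the replicate block called 0 genes. limma called 0 to 1 genes without each pool in turn. The 1 call, LOC110256963, came without control pool 2 (log2 fold change 2.77, adjusted p = 0.0346), and its adjusted p was 0.443 with all pools. Its FPKM was 0.76, 0.71, 0.49 and 0.42 in the squalene pools and 0, 0.21, 0 and 0 in the control pools. At such low values the fold change depends on the 0.1 added before the logarithm. LOC110256963 has no exonic site in the table. The log2 fold changes without each pool in turn were −0.027 to 0.049 in ATL3, −0.29 to 0.12 in STARD4 and −0.031 to 0.11 in SP110, each with a change of sign, and the cause was not tested. Letters without depth limit each count here, because a base read a few times and a base read often look the same.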
